A study of Mus musculus with 258 samples.

Results

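The loops described here are mid-length chromatin loops that were called in resting mouse B cells and not in activated ones. They were selected on measured values, the positions of loops in 2 deposited lists. A loop of the resting list was taken when it lay on an autosome, when its 2 ends were more than 50 kb and at most 500 kb apart, and when no activated loop had its left end within 20 kb and its right end within 20 kb of the same loop. The rule found 305 loops among 1219 mid-length autosomal resting loops, a share of 25% (95% Wilson interval 22.7% to 27.5%). The other 914 had an activated counterpart and are called matched loops here, and the 305 are called resting-only loops. Over all lengths, 644 of 1814 autosomal resting loops lacked a counterpart, 35.5%. In the other direction 3036 of 4209 autosomal activated loops lacked a resting counterpart, 72.1%. These 3 shares are set by the matching rule and by how many loops each list holds, and nothing is read from them about the resting-only loops.

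The study mapped chromatin in B cells with Hi-C, in which crosslinked DNA ends that lie close together are ligated and sequenced as pairs, and with many other assays. B cells came from the spleens of wild-type C57BL6/J mice aged 6 to 8 weeks and were enriched by negative selection. Resting cells were used at 0 h and are represented by 8 Hi-C libraries. Activated cells had been cultured for 72 h with lipopolysaccharide at 50 µg/mL, interleukin 4 at 2.5 ng/mL and an antibody against CD180 at 0.5 µg/mL, and are represented by 26 Hi-C libraries. The activated list is named without a time of culture. The 72 h state was assigned to it, since the deposited description has no other activated map free of a deletion or an inhibitor. Each state has 1 pooled list of loops and no replicate, so no test between states was made, and the intervals given cover counting error only.

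In a loop, cohesin is thought to reel in DNA until it meets CTCF bound at an anchor, most often with the CTCF motifs of both anchors facing each other. An anchor can serve several loops, and loops that share an anchor or lie inside one another form nests within a larger domain. Mid-length loops join promoters to enhancers as well as CTCF sites to one another. Resting B cells are quiescent and carry compact chromatin, and the activating mix drives them into growth, division and class switching.

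Loops were called on 5 kb pixels of the mouse build mm9. Positions are given from the first base of the left anchor to the last base of the right anchor, and length is the distance between the starts of the anchors. Strength is the observed contact count at the loop's pixel divided by the count expected from a ring of pixels around it, the donut background. A loop that is missing from a list was not called there, which does not show that it was absent, and contact counts of the activated map at the resting-only pixels were not used here.

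The resting-only loops were short and weak for their class. Their median length was 100 kb, with quartiles of 70 and 155 kb, against 130 kb (90 and 205 kb) for matched loops. Loops of 50 to 100 kb made up 156 of the 305, or 51.1%, against 33.2% of matched loops. The share without an activated counterpart was 34.0% of 459 resting loops of 50 to 100 kb (interval 29.8% to 38.4%), 21.4% of 481 loops of 100 to 200 kb (18.0% to 25.3%) and 16.5% of 279 loops of 200 to 500 kb (12.6% to 21.3%). The interval of the shortest class did not overlap the other two.

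Median strength was 2.56 in resting-only loops (interval of the median 2.48 to 2.62, range 1.81 to 4.97) and 2.91 in matched loops (2.86 to 2.97). The 2 classes had the same median contact count, 57. With all lengths pooled they differed in the count expected from the surroundings, with medians of 22.9 at resting-only loops and 19.8 at matched loops. Within length classes the median contact count was lower in resting-only loops. It was 62 against 69 at 50 to 100 kb, 52 against 55.5 at 100 to 200 kb and 42 against 47 at 200 to 500 kb. The expected counts were 28.1 against 26.4, 19.3 against 18.7 and 13.2 against 13.9, so their order turned in the longest class. The lower strength was seen within each length class: 2.33 against 2.55 at 50 to 100 kb, 2.69 against 2.95 at 100 to 200 kb, and 3.02 against 3.37 at 200 to 500 kb. The resting-only loops were also narrower calls. A single enriched pixel made up 64 of them, 21%, against 9.63% of matched loops, and 5 or more merged pixels made up 12.1% against 36.2%. All 4 local backgrounds gave a q-value of at most 0.01 for 156 of the 305 loops, 51.1%, against 67.2% of matched loops.

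The share of loops that lacked a counterpart was lower at higher strength. Of 32 resting loops with strength below 2, 24 were resting-only, 75% (interval 57.9% to 86.8%). The share was 36.9% at strengths from 2 to 2.5, 26.1% from 2.5 to 3, 13.1% from 3 to 4 and 11.6% at 4 or more, where 10 of 86 loops lacked a counterpart (6.44% to 20.1%). Within a strength class the intervals of the 3 length classes overlapped. Below 2.5 the shares were 43.6% (103 of 236), 34.5% (30 of 87) and 28.6% (6 of 21) from the shortest to the longest class. From 2.5 to 3 they were 29.7%, 22.6% and 27.9%, and at 3 or more 10.3% (7 of 68), 14.7% (30 of 204) and 11.7% (23 of 197), with no order by length in either. Merged pixels gave the same kind of order, from 42.1% of loops with 1 pixel to 10.1% of loops with 5 or more. At the 914 matched loops the donut-expected count of the activated map was 1.52 times the resting one (interval of the median 1.49 to 1.56). This is a local value at called loops, and it does not separate depth from a change in local contacts. Read totals were not used. The part of strength, calling limits and depth in the absence of these loops from the activated list was not tested. Being called in the other state can itself depend on strength, so the values of resting-only and matched loops are set side by side as a description.

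**Figure D1:**
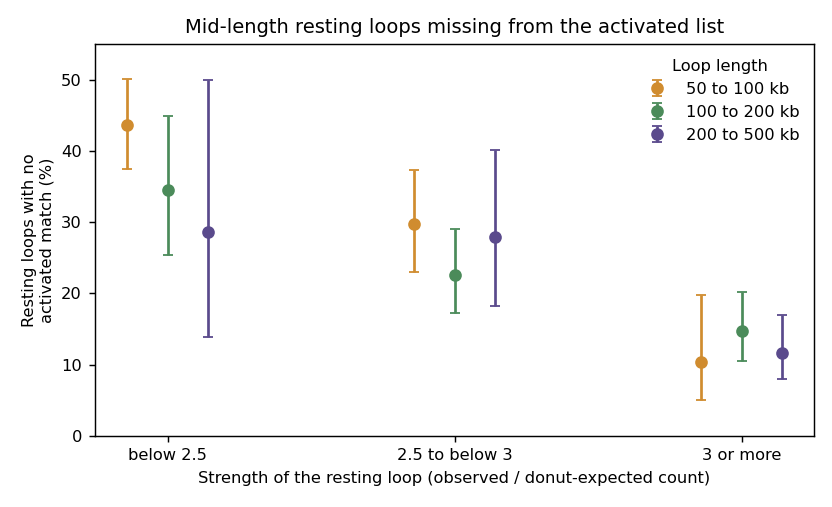
The vertical axis is the percentage of mid-length resting loops with no activated counterpart, and the horizontal axis groups resting loops by strength (observed over donut-expected count). Points are shares in 3 length classes with 95% Wilson intervals, and they run from 43.6% for short loops below 2.5 to between 10.3% and 14.7% for loops of 3 or more.

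Most resting-only loops shared at least 1 anchor with an activated loop. Counting activated loops that start at the same left anchor (within 20 kb), 109 of the 305 had one, 35.7%. Counting those that end at the same right anchor, 115 had one, 37.7%. Either end was held in this way in 196 loops, 64.3% (interval 58.7% to 69.4%). Matched loops, counted without their own counterparts, gave 58.3% (55.1% to 61.5%), and 55.8% when weighted to the lengths of the resting-only loops. Part of the resting-only figure comes from loops just outside the matching tolerance: the 251 with no activated loop within 30 kb at both ends gave 57.8% (51.6% to 63.7%), which overlaps the interval of matched loops. That cut was not made in matched loops. Of the 54 loops left out, 50 had 1 end within 20 kb of the nearest activated loop's, so the cut itself lowers the share. Nothing is concluded from the overlap. With near misses kept, the shares were 53.2% against 50.8% of matched loops at 50 to 100 kb. They were 72.8% (63.5% to 80.5%) against 56.6% (51.6% to 61.5%) at 100 to 200 kb, and 82.6% against 70.8% at 200 to 500 kb. The intervals were separate at 100 to 200 kb and overlapped in the shorter and longer classes.

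Anchors were counted a second way, in any role, so that a loop arriving from the other side also counts. Both anchors of 57 resting-only loops (18.7%) were anchors in the activated list, 1 anchor of 167 (54.8%), and neither anchor of 81 (26.6%). The left anchor was in use in 45.9% and the right anchor in 46.2%. Within the resting list, 120 of the resting-only loops (39.3%) shared an anchor with a resting loop that did have an activated counterpart, and 42 (13.8%) shared one with another resting-only loop. The shares of this second count were not computed for matched loops. Whether they are particular to the resting-only loops is therefore not known.

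Where the left anchor was held, the nearest activated loop at it reached further out in 59 of 109 cases and less far in 50. Where the right anchor was held, it reached further out in 68 of 115 and less far in 47. The outward shares were 54.1% (interval 44.8% to 63.2%) and 59.1% (50.0% to 67.7%), and both intervals include an even split. Over all activated loops at a held anchor, the activated loop was longer in 81 of 135 left pairs, 60.0% (51.6% to 67.9%). It was longer in 89 of 152 right pairs, 58.55% (50.6% to 66.1%). These intervals lie above an even split, but they count some resting-only loops more than once. Matched loops gave 51.9% (47.0% to 56.7%) and 51.4% (46.7% to 56.1%), which overlap them. The other end of the nearest activated loop lay a median of 75 kb outward or 60 kb inward with the left end held. With the right end held it lay 67.5 kb outward or 55 kb inward. The held end lay within 1 pixel of its resting position in 77 of 109 left-held and 81 of 115 right-held loops, although the rule allowed 4 pixels.

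Strength differed with the direction in which the activated loop reached. Activated loops that reached further out had a median strength of 2.91 with the left end held, against 2.52 for the resting-only loops that shared the end, and were stronger in 49 of 59 pairs. With the right end held the values were 3.09 and 2.49, and 53 of 68 were stronger. Activated loops that reached less far were weaker: 2.43 against 2.87 (stronger in 6 of 50) with the left end held, and 2.49 against 2.70 (stronger in 17 of 47) with the right. Strength rises with length in the activated list as a whole, from a median of 2.12 at up to 50 kb through 2.42, 2.87 and 3.27 to 4.30 above 500 kb, and how much of the difference in these pairs follows from length was not tested.

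**Figure D2:**
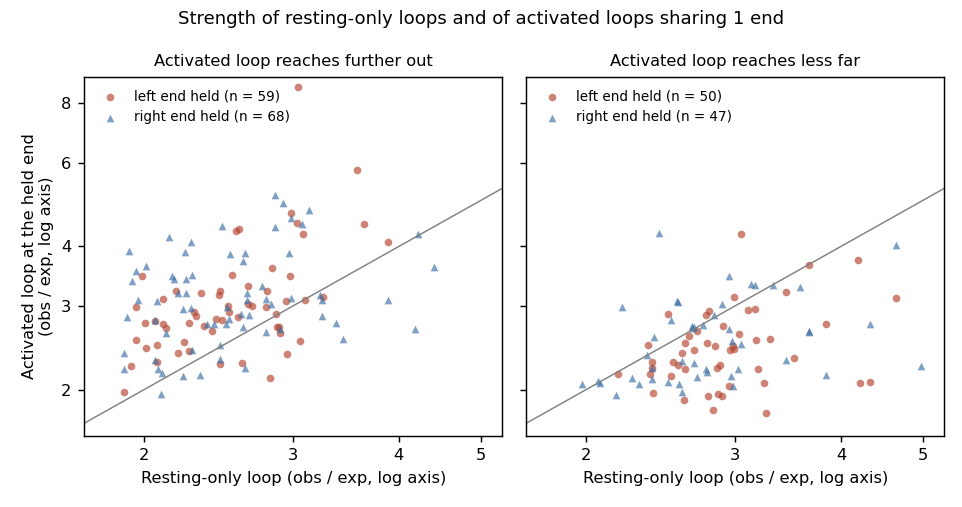
Each point pairs a resting-only loop with the nearest activated loop that shares its left end (circles) or right end (triangles). The axes give the strengths of the 2 loops on log scales and the line marks equal strength. Loops reaching further out lie mostly above the line (49 of 59 and 53 of 68), and loops reaching less far mostly below it (stronger in 6 of 50 and 17 of 47).

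An activated loop enclosed 143 of the 305 resting-only loops, 46.9% (interval 41.4% to 52.5%), and 347 of the 914 matched loops, 38.0% (34.9% to 41.2%). The share was 39.8% for matched loops at the lengths of the resting-only loops, and 41.4% (35.5% to 47.6%) for the resting-only loops with no activated loop within 30 kb. That cut was not made in matched loops. By length the shares were 53.8% against 44.9% of matched loops at 50 to 100 kb and 42.7% against 34.4% at 100 to 200 kb. At 200 to 500 kb they were 32.6% against 34.8%, which turns the order. Within each length class the intervals overlapped. Enclosure by more than 20 kb at both ends was less frequent, 59 loops or 19.3%. The other enclosed loops had only enclosing loops that ended within 20 kb of 1 of the anchors. The smallest enclosing loop was 1.95 times as long as the resting-only loop at the median (quartiles 1.54 and 2.90), and up to 4 activated loops lay around 1 resting-only loop. At least 2 enclosing loops were found for 47 resting-only loops, 15.4%, against 8.10% of matched loops.

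An activated loop lay inside 82 resting-only loops, 26.9% (22.2% to 32.1%), against 28.2% of matched loops. Weighted to the lengths of the resting-only loops, matched loops gave 21.3%, which turns the direction. The resting-only loops with no activated loop within 30 kb gave 21.5% (16.9% to 27%), a cut that was not made in matched loops. The share rose with length, from 11.5% at 50 to 100 kb through 35.9% to 58.7% at 200 to 500 kb, where matched loops gave 56.2%. With the inner loop more than 20 kb from both ends the share was 5.57%, or 17 loops. The other resting-only loops with an inner loop had only inner loops that ended within 20 kb of 1 of the anchors. The largest inner loop spanned 0.551 of the resting-only loop at the median. A total of 29 resting-only loops had activated loops both around and inside them, and 109 had neither.

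Many activated loops around and inside the resting-only loops were also in the resting list. Of all autosomal activated loops 72.1% had no resting counterpart. Among 182 distinct enclosing loops 106 had none, 58.2% (interval 51.0% to 65.2%). The share was 64.3% of 126 inner loops (55.6% to 72.1%), 60.0% of 130 loops at the same left anchor and 57.3% of 143 at the same right anchor. Matched loops gave 72.6%, 60.3%, 69.5% and 63.6% for the same 4 relations. Of the 196 loops with a held anchor, 56 shared it only with activated loops that the resting list also held, 99 only with loops found in the activated list alone, and 41 with both kinds. In addition 137 resting-only loops (44.9%) enclosed or lay in another resting loop, a share that was not computed for matched loops.

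Crossing, in which an activated loop has 1 end inside the resting loop and the other outside, was the relation in which the intervals of the 2 classes lay furthest apart. It was found for 73 of them, 23.9% (interval 19.5% to 29.0%), and for 122 matched loops, 13.3% (11.3% to 15.7%), or 12.2% at the lengths of the resting-only loops. It rose with length to 45.7% at 200 to 500 kb (32.2% to 59.8%), against 18.0% of matched loops (13.6% to 23.5%). Leaving out the resting-only loops with an activated loop within 30 kb gave 22.7% (18.0% to 28.3%). Crossing by more than 20 kb on every side was rarer, 23 loops or 7.54% (5.08% to 11.1%) against 2.19% (1.42% to 3.36%). Examples picked after their values were seen were chr18:60940001-61145000 (strength 3.33), crossed by chr18:61020001-61210000 (2.56), and the overlapping pair chr8:10830001-11195000 and chr8:10985001-11175000, both crossed by chr8:10575001-11015000 (3.26). A like difference was present among resting loops themselves, since other resting loops crossed 11.5% of the resting-only loops and 6.46% of matched loops.

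**Figure D3:**
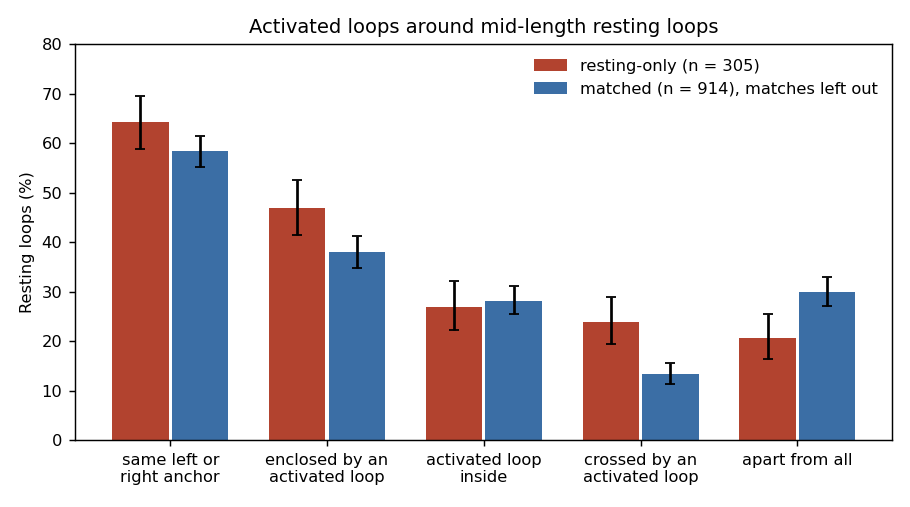
Bars give the percentage of resting-only (n = 305) and matched (n = 914, their own counterparts left out) mid-length resting loops in each relation to activated loops, with 95% Wilson intervals. The intervals are separate for crossing (23.9% and 13.3%), for loops apart from all activated loops (20.7% and 30.0%) and, narrowly, for enclosure (46.9% and 38.0%). They overlap for a shared anchor and an inner loop. Without the resting-only loops that have an activated loop within 30 kb, the pooled intervals for enclosure and for loops apart overlap too. No loop left out in this way was apart, so the cut can only raise the share apart. That cut was not made in matched loops.

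Each resting-only loop was then placed in 1 class, with a shared anchor taking precedence over enclosure and crossing. The classes held 28 loops with both ends in different activated loops (9.18%, interval 6.43% to 12.95%, against 15.3%, 13.1% to 17.8%, of matched loops and 11.7% at the lengths of the resting-only loops), 81 with the same left anchor alone, 87 with the same right anchor alone, 20 enclosed with no shared anchor, 26 only crossed or touched end to end, and 63 apart from every activated loop. No resting-only loop enclosed an activated loop without sharing an anchor or being itself enclosed, whereas 11 matched loops did. The 20 enclosed loops were the weakest class, with a median strength of 2.07 and a highest value of 2.68, and a median length of 82.5 kb. The 28 loops with both ends taken were the longest, at a median of 207.5 kb, and the strongest, at 2.88.

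In 17 of these 28 loops both partner loops reached inward, so that the span of 1 resting loop held shorter activated loops at either end. The clearest was chr5:44230001-44385000, with 71 contacts where 16.4 were expected and a strength of 4.33 (95% Poisson interval of the count, expected count held fixed, 3.38 to 5.46). The activated list had chr5:44240001-44280000, with a strength of 2.08, and chr5:44280001-44385000, with a strength of 2.75, which lay end to end across it. The first was also in the resting list and the second was not. At chr6:87345001-87620000 (strength 3.84, 55 contacts) the activated list likewise had a left loop, chr6:87345001-87405000 (182 contacts, 2.75), and a right loop, chr6:87415001-87605000 (56 contacts, 2.15). The loop chr4:63160001-63610000 was 445 kb long with a strength of 4.22 (3.00 to 5.76). It had 7 activated loops inside it and 1 around it, chr4:63080001-63610000 with a strength of 4.26, and none of these had a resting counterpart. Its right anchor ended 4 activated loops, of 525, 325, 260 and 75 kb.

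The strongest loop with at least 30 contacts was chr3:67305001-67375000, 65 kb long, with 42 contacts and a strength of 4.40 (3.17 to 5.95). The 1 activated loop at its right anchor was chr3:67150001-67380000, 225 kb long with a strength of 3.62. At the left anchor of chr3:122870001-123060000 (43 contacts, strength 4.19, interval 3.03 to 5.64) the activated list had 2 shorter loops, chr3:122870001-123030000 with a strength of 3.74 and chr3:122875001-122915000 with 2.44. Another, chr3:122930001-123025000, lay inside. Here the nearest activated loop ended 30 kb short of the resting one, and shorter loops lay within it. At chr5:90650001-90800000 (strength 3.63) the activated list instead had a longer loop from about the same left anchor, chr5:90630001-90930000, with a strength of 4.45. Another long reach was seen at chr19:17195001-17465000 (265 kb, strength 3.57), where the activated loop at the left anchor spanned 1420 kb with a strength of 5.79 on 22 contacts.

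The strongest enclosed loop with no shared anchor, chr1:167785001-167895000, had a strength of 2.68. It lay in an activated loop of 370 kb, chr1:167705001-168080000, with a strength of 5.15. A further activated loop, chr1:167710001-167790000, ended at its left anchor. The next enclosed loops by strength were chr2:92970001-93030000 (2.68, 98 contacts), in an activated loop that also had a resting counterpart, and chr14:103750001-103870000 (2.66, 50 contacts), in an activated loop of 465 kb.

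**Figure D4:**
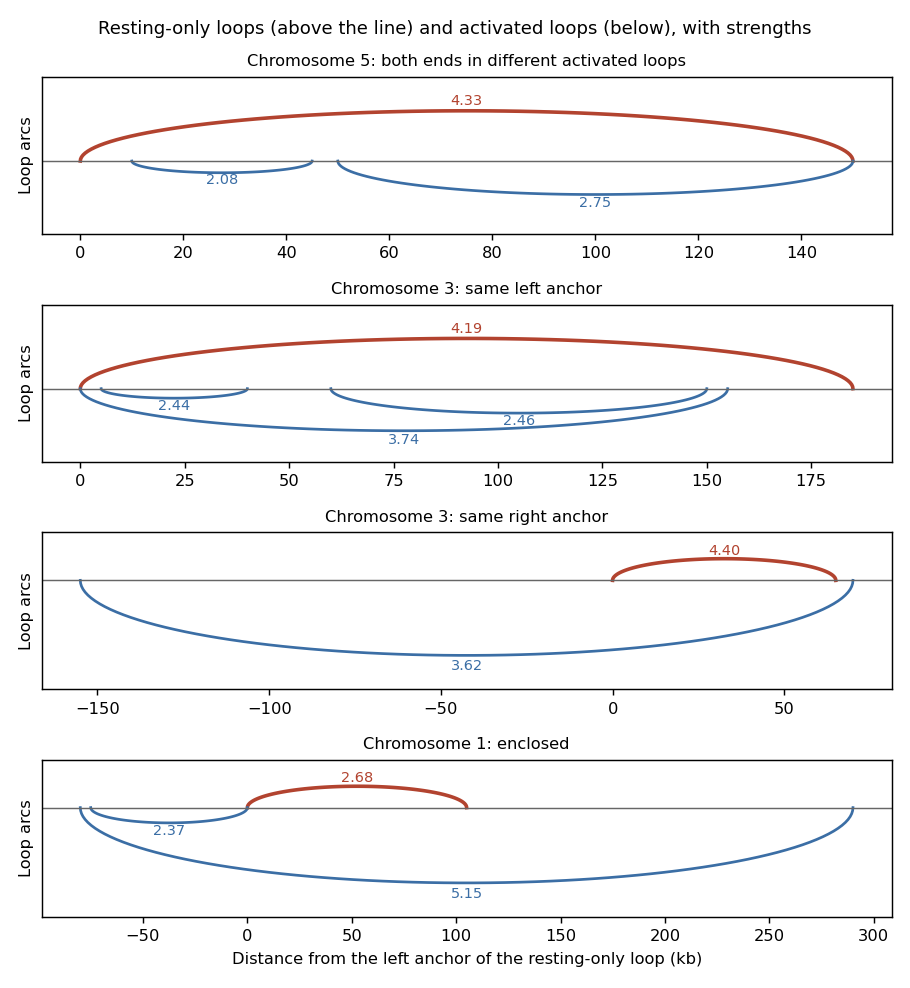
Arcs above the line are the strongest resting-only loop (at least 30 contacts) in each of 4 relation classes and arcs below it are the activated loops related to that loop, with the strength of each. The horizontal axis is the distance in kb from the left anchor of the resting-only loop, and arc height within a panel is proportional to loop length. The chromosome 5 loop is tiled by 2 inner loops, and the loops on chromosome 1 and in the lower chromosome 3 panel lie within a longer one.

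The 63 loops apart from every activated loop made up 20.7% of the resting-only loops (interval 16.5% to 25.5%) and 30.0% of matched loops (27.1% to 33.0%) lay apart from all but their counterparts. Among the resting-only loops with no activated loop within 30 kb the share was 25.1% (20.1% to 30.8%). This overlaps the interval of matched loops, in which no such cut was made. All 63 loops apart remained after the cut, so it can only raise their share, and nothing is concluded from the overlap. The 63 loops had a median strength of 2.52 and a median length of 95 kb. The strongest with at least 30 contacts was chr17:51130001-51430000, 295 kb long, with 42 contacts and a strength of 4.34 (3.13 to 5.87). The nearest activated loop, chr17:50940001-51105000, ended short of its left anchor. At chr9:95410001-95760000 (strength 3.85) and chr13:93345001-93515000 (strength 3.80) the nearest activated loops differed by 770 and 505 kb at the more distant end. At these places no activated loop shared an anchor with the resting loop, enclosed it, lay inside it or crossed it.

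The distance to the nearest activated loop, taken as the larger of the 2 end distances, had no break at the limit. Matched loops numbered 312 at 0 kb, 315 at 5 kb, 160 at 10 kb, 84 at 15 kb and 43 at 20 kb, and resting-only loops numbered 31 at 25 kb, 23 at 30 kb, 15 at 35 kb and 8 at 40 kb. Median strength was 2.52 at 20 kb and 2.84 at 25 kb. Just inside the limit, chr16:45195001-45415000 (strength 4.45) was matched to chr16:45215001-45410000 (2.51), chr6:97225001-97475000 (3.89) to chr6:97205001-97475000 (2.73), and chr1:107785001-107940000 (3.59) to chr1:107785001-107920000 (2.70). Just outside it, chr17:51970001-52305000 (4.18) was nearest to chr17:51945001-52325000 (2.68), chr4:33235001-33385000 (3.88) to chr4:33210001-33385000 (3.08), and chr17:28340001-28450000 (3.58) to chr17:28365001-28450000 (3.29). These 6 resting loops were named for being among the strongest at their distance. Over all 54 resting-only loops with an activated loop within 30 kb, the activated loop was the stronger in 24, with median strengths of 2.69 (resting-only) and 2.62 (activated). The choice of 20 kb decides which of such loops count as resting-only.

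Within 30 kb 54 resting-only loops had an activated loop, 17.7%, and between 30 and 50 kb another 42. In 64 of these 96 the match failed at 1 end only, with the other end within 5 kb. A further 78 had their nearest activated loop at 50 to 100 kb, 52 at 100 to 200 kb, 59 at 200 to 500 kb and 20 beyond that. The nearest activated loop was longer in 180 cases, shorter in 121 and of equal length in 4. Among the 96 within 50 kb it was longer in 52 and shorter in 43, and at 50 to 100 kb in 44 and 34. Further away the counts were 34 and 17 at 100 to 200 kb, 36 and 22 at 200 to 500 kb, and 14 and 5 beyond. No background count is set beside these values, so nothing is read from them about a change in length.

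**Figure D5:**
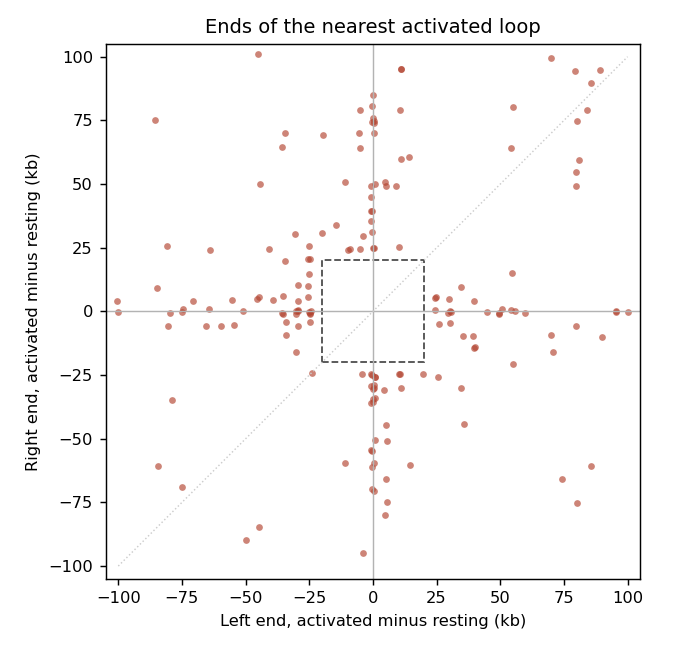
Each point is a resting-only loop whose nearest activated loop differed by at most 100 kb at both ends, placed by the shift of the left end (horizontal) and of the right end (vertical) in kb, with a small offset so that points do not hide each other. The dashed box is the 20 kb matching limit, and points gather along the 2 axes, where 1 end agreed and the other differed.

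Long resting-only loops were few, 46 above 200 kb. The longest, chr4:8520001-9025000, was 500 kb long (46 contacts, strength 3.67). The activated loop chr4:8595001-9025000 shared its right anchor and began 75 kb further in, with 82 contacts and a strength of 2.64. Next to one another on chromosome 6 lay chr6:145305001-145745000 (435 kb, strength 3.67) and chr6:145805001-146220000 (410 kb, strength 2.79). The first had only activated loops that ended at its left anchor, and the second was 30 kb from chr6:145775001-146225000, an activated loop with 79 contacts that was also in the resting list. The loop chr16:94035001-94470000 (430 kb, strength 2.44) shared its right anchor with chr16:94090001-94485000, with a strength of 4.27, and was crossed by chr16:93915001-94085000.

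Resting-only loops lay on all 19 autosomes. Their share of mid-length resting loops was highest on chromosome 3, at 22 of 65 or 33.8% (interval 23.5% to 46.0%), and lowest on chromosome 14, at 6 of 42 or 14.3% (6.72% to 27.8%), with overlapping intervals. On chromosome 3 an anchor was shared by 16 of the 22 and 2 lay apart. On chromosome 8, picked out after its values were seen, an anchor was shared by 7 of 17 and 8 lay apart. Neighbouring resting-only loops on a chromosome started within 1 Mb of each other in 66 of 286 pairs, 23.1%, a share that was not computed for matched loops.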

How the data were processed

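Per the submitters' processing notes, the Hi-C processing named BWA and Juicer and the genome build mm9. Not given in the sources used are their versions, the program that called loops and its settings. The deposited lists give for each loop, per the file headers, an observed contact count, which is a whole number and not normalized, expected counts from 4 local backgrounds, and a q-value (false discovery rate) against each. The observed counts ranged from 19 to 999 (median 61) in the resting list of 1866 loops and from 14 to 932 (median 67) in the activated list of 4315 loops. The lists hold only loops that passed the authors' limits, with q-values up to 0.0942 and 0.0998. Library depth could be compared only indirectly, through expected counts at called loops.

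Loops were matched and related in Python 3.11.15 with NumPy 2.4.6, pandas 2.3.3 and SciPy 1.17.1. The matching was tested on simulated data. Activated loops matching a resting loop within 20 kb at both ends were left out of its relations. Where resting-only loops with an activated loop within 30 kb were left out, no such cut was made in matched loops. Intervals are 95% Wilson intervals for shares, order-statistic intervals for medians and exact Poisson intervals for single counts. Named loops are the 5 strongest with at least 30 contacts, the 5 longest, the 3 strongest of a relation class with at least 30 contacts, and the 3 nearest to either side of the matching limit. Alternatives were other tolerances, stricter q-values, other backgrounds and chromosomes left out. The resting-only loops, the classes and the rules were chosen with earlier results of these data known. Another 59 Hi-C libraries and the 165 from other assays were not analysed here. An mm9 sequence or gene annotation was not used here, so anchors carry no gene names or sequences, and the planned count of B cell genes at anchors was not made.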

Additional observations from a re-analysis of the deposited data

How the results depend on the processing

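Of 43 alternative values, 30 stayed within the interval of the reported one and 13 did not. The 30 include all settings that only left out 1 chromosome, 19 of them for the share without a counterpart. Such settings change few loops. All 13 values outside the interval came from other kinds of setting, and most settings of those kinds moved the value out. Most are shares, which have no direction to reverse, and the 5 alternative ratios of median strength all stayed below 1. The share of mid-length resting loops without a counterpart, 25.0%, was 35.4% at a tolerance of 10 kb, 20.6% at 30 kb and 17.2% at 50 kb. It was 20.3% for resting loops with all q-values at most 0.01, 29.4% with that limit on both lists and 22.6% for loops of more than 1 pixel. The other lists and tolerances change the rule itself. The share with a held anchor, 64.3%, was 58.7% at an anchor tolerance of 10 kb and 57.8% for resting-only loops with no activated loop within 30 kb. Enclosure fell from 46.9% to 19.3% when more than 20 kb was required at both ends. An inner loop was found in 5.57% under that requirement and in 21.5% of the loops with no activated loop within 30 kb, against 26.9%. The ratio of median strengths, resting-only over matched, was 0.881, 0.928 with the lower left background and 0.930 at lengths of 100 to 500 kb. The cause of the last 2 was not tested. Leaving out 1 chromosome at a time gave shares of 24.4% to 25.4% in 19 settings. Leaving out the chromosomes other than 13, and the loops within 30 kb, were chosen after seeing the data. With 1 pooled list per state, spread between libraries or mice is not covered, and contact counts of 21 to 153 leave single strengths imprecise.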
